A study of Mus musculus with 8 samples.

Results

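Smoothened, the membrane receptor encoded by Smo, and 9 genes that act next to it in the Hedgehog pathway were followed in whole mouse embryos. The 10 genes were chosen by symbol from the 41709 symbols of the deposited table: the receptors Smo and Gpr161, the arrestins Arrb1 and Arrb2, the receptor kinase Grk2, the protein kinase A (PKA) subunits Prkaca, Prkacb and Prkar1a, and the kinases Csnk1a1 and Gsk3b. All 10 were present and passed the filter on low values, a minimum of 1 TPM in 4 or more embryos, which left 13596 genes for testing. The study compared 4 mutant embryos, homozygous for the K399A substitution in Smo (SmoK399A/K399A), with 4 wild-type embryos (WT, Smo+/+), all at embryonic day 9.5 and from crosses of heterozygous parents. The substitution is carried in the germline, so every cell of a mutant embryo has it. Several litters were collected, and the labels tie no embryo to a litter. Each library held the RNA of 1 whole embryo, so a lower share of the cells that express a gene and less of its RNA per cell cannot be told apart.

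Without a Hedgehog ligand, the receptor Patched keeps Smoothened inactive and largely out of the primary cilium. Gpr161, a ciliary receptor that couples to the stimulatory G protein, then helps to keep cyclic AMP and PKA active. PKA phosphorylates the GLI transcription factors and primes them for casein kinase 1 and glycogen synthase kinase 3, which leads to their processing into repressors. With a ligand, Smoothened enters the cilium and is phosphorylated by Grk2 on its tail. That tail can bind and block the catalytic subunit of PKA, arrestins associate with the receptor, and Gpr161 leaves the cilium. Much of this control acts on proteins rather than on transcripts.

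The site of the substitution is shown because it is the difference in genotype between the groups. Codon 399 lies in exon 6 of 12 of the coding transcript of Smo, at chr6:29755525-29755527 on the plus strand (GRCm38), and the transcript has 793 coding codons. The stretch below is the reference messenger RNA (GENCODE M21, written as DNA), 147 bases with 24 codons on each side, and it spans the junction of exons 5 and 6. Codon 399, AAG for lysine (K), is in capitals. The base change by which the mutant allele encodes alanine (A) is not given in the sources used here.
Smo codon 399: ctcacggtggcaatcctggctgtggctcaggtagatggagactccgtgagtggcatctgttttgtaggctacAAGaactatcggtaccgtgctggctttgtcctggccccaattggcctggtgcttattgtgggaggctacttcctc

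The deposited values are TPM, reads divided by gene length and scaled to the same total per library. Between 59.1 and 60.5 M reads (M, mega) per library were recovered from the steps between the values, so the libraries were of nearly equal depth. Transcripts that mark neural tissue, heart, paraxial mesoderm, endothelium and primitive blood were present in all 8 embryos. Xist, which marks female embryos, was at 22.4 to 91.9 TPM in mutants 2 and 4 and in WT 1 and 3, and near 0 in the others. Libraries of mutants 3 and 4 stood apart in the transcripts that host small nucleolar RNAs: the summed level of 8 such genes, all lower in mean in mutants, was 323 and 306 TPM there, 605 and 745 TPM in mutants 1 and 2, and 627 to 760 TPM in WT. The 12 markers of yolk sac endoderm summed to 145 to 1323 TPM in mutants, against 16.0 to 255 TPM in WT, with all 11 tested ones higher in mean in mutants and none at 0 in any embryo. The 5 tested markers of trophoblast and decidua, of 8 on that list, were all higher in mean in mutants, and the list summed to 131 to 400 TPM in mutants, against 72.2 to 118.5 TPM in WT (Tpbpa, Ctsq and Gcm1 were at 0 in some embryos). The 4 endothelial markers, also higher in mean, summed to 109.5 to 145.6 TPM in mutants, against 86.0 to 98.7 TPM in WT, with none at 0. Neither pair of ranges overlapped. The 5 heart markers, also higher in mean, summed to 1067 to 2123 TPM in mutants and 648 to 974 TPM in WT, again without overlap. The 3 blood markers were higher in mean, with overlapping sums. All 4 neural markers were lower in mean in mutants, with sums of 151.7 to 334.3 TPM, against 273.9 to 356.5 TPM in WT. So were all 4 of paraxial mesoderm, at 81.0 to 183.0 TPM against 112.9 to 171.5 TPM. A lower mean in mutants was held by 8472 of the 13596 genes tested, and a higher one by 5124. The part of the tissues on these lists in the values of the 10 genes was not tested.

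Transcripts of the 10 genes had mean levels from 17.0 to 200.5 TPM in the embryo. Prkar1a, the type I regulatory subunit of PKA, was the most abundant at a mean of 200.5 TPM over the 8 embryos, followed by Prkaca, a catalytic subunit, at 167.2 TPM, Smo at 140.4 TPM and Csnk1a1, casein kinase 1 alpha, at 122.5 TPM. These 4 held the same places in each of the 8 embryos. Then came Grk2 at 58.3 TPM, Gsk3b at 43.2 TPM, Arrb2 at 41.1 TPM, Prkacb at 34.2 TPM, Arrb1 at 31.3 TPM and Gpr161 at 17.0 TPM. The embryos' values of neighbours in this order overlapped for Prkaca and Smo, for Smo and Csnk1a1, and for each step from Gsk3b to Arrb1, so only the places of Prkar1a, Grk2 and Gpr161 were separated from their neighbours by more than the spread between embryos. Smo was above 91.8% of the 13596 genes in mean level, and Gpr161 above 48.3%.

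**Figure D1:**
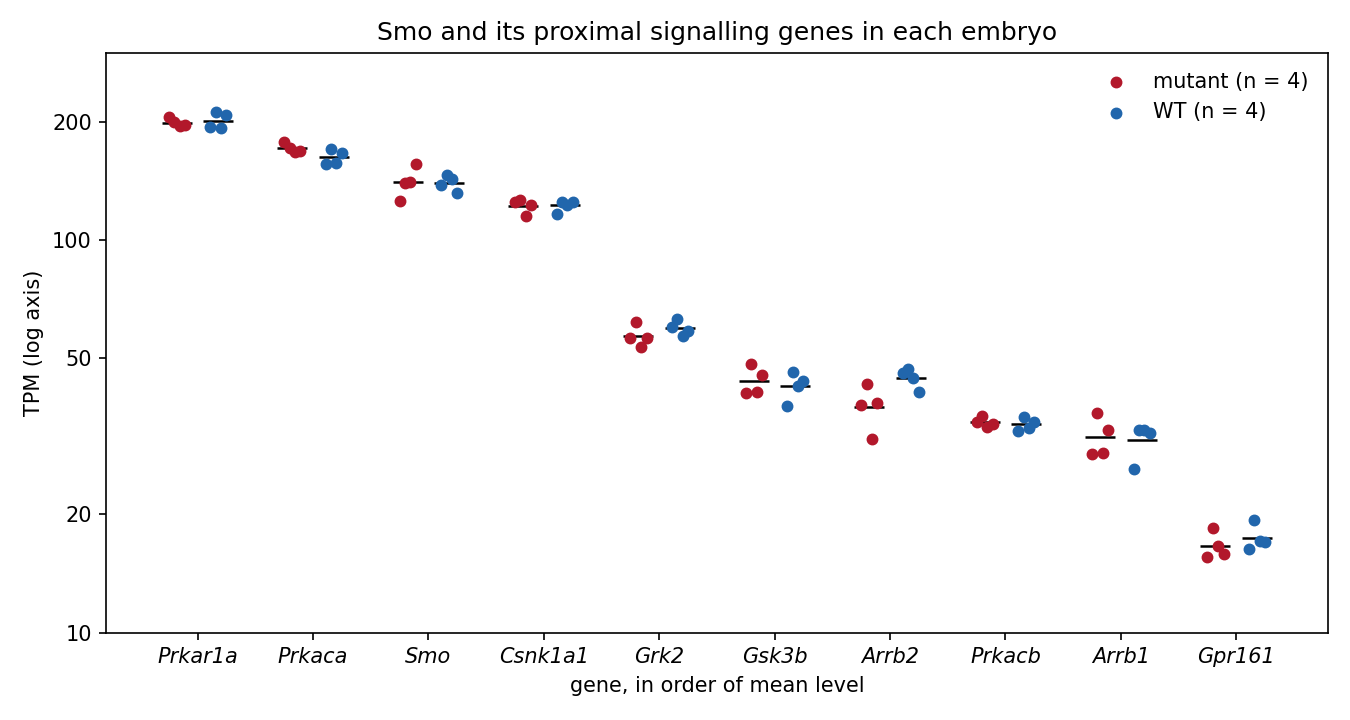
TPM (log axis) of each of the 10 genes in each embryo, ordered by mean level, with mutants in red left of WT in blue and a bar at each group mean (n = 4 each). Prkar1a lies between 192.8 and 211.8 TPM and Gpr161 between 15.5 and 19.3 TPM, and the groups overlap for every gene.

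The order depends in part on the gene length behind TPM. The reads were divided by the length of all exons merged, which for Csnk1a1 is 10502 bases against 4083 bases for its longest coding transcript. The longest coding transcript was also used as the length, a choice made after seeing the data. These values were not rescaled to the same total per library, so only their order and ratios can be read. By this length Csnk1a1 was at the top at 315.2, ahead of Prkar1a at 246.7, Smo at 208.9 and Prkaca at 182.8. Prkacb moved from place 8 to place 6. Smo stayed at place 3, Grk2 at 5, Arrb2 at 7, Arrb1 at 9 and Gpr161 at 10. Comparisons of 1 gene between genotypes are not touched by this choice. The shares and ratios across genes given below use the merged lengths and do depend on it.

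The comparison of mutant with WT embryos asked whether the transcripts of the receptor and its neighbours differ when Smoothened carries K399A. None of the 10 genes passed the test (limma on log2(TPM + 1), adjusted p under 0.05 over all genes), and 0 of the 13596 genes did (0.0%). Limma voom on recovered reads also called 0, while 1842 genes had an unadjusted limma p under 0.05. Exact permutation of embryos between the groups, run for each gene, could call none after adjustment. Its smallest possible p, 0.0286, became 0.383 once adjusted, so its count of 0 says nothing about the genes. At an unadjusted p under 0.05 there was 1 gene of the 10, Arrb2, lower in mutants, against 13.5% of all genes (8.0% for lower). For none of the 10 were the groups free of overlap, against 7.46% of all genes. Of the 10, 5 had a higher and 5 a lower mean in mutants, against 5124 higher and 8472 lower of the 13596 genes. The median log2 fold change (mutant minus WT) was -0.00048 over the 10 and -0.045 over all genes tested, and the median of its absolute size was 0.034 and 0.10.

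**Figure D2:**
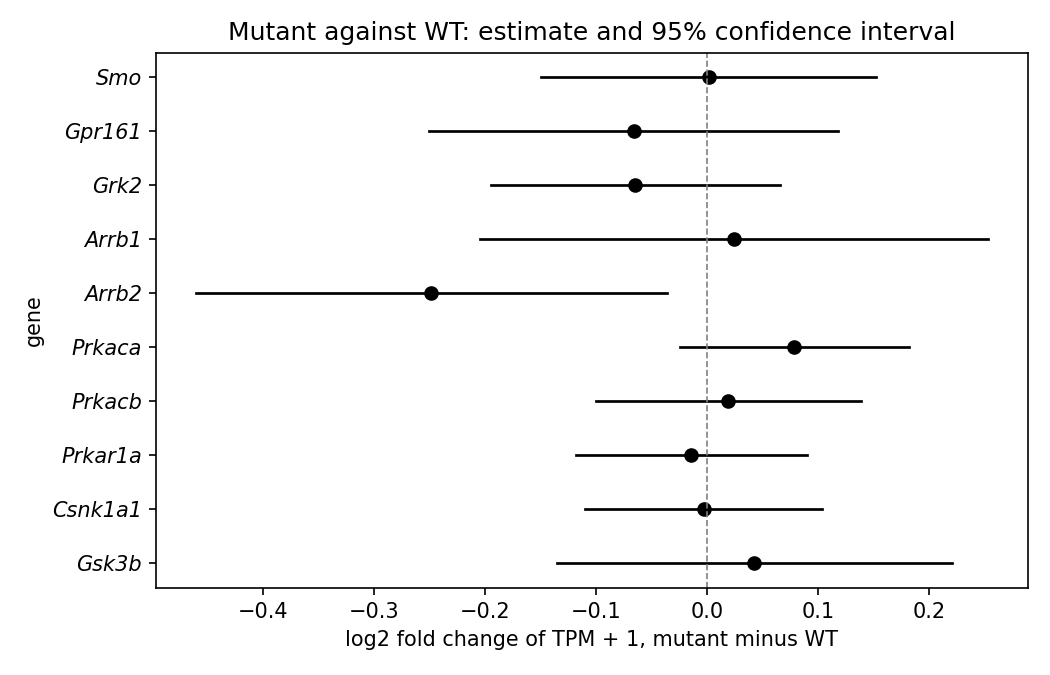
Log2 fold change of TPM + 1, mutant minus WT, for each of the 10 genes (points) with its 95% confidence interval from limma (bars). All intervals include 0 except that of Arrb2, which runs from -0.46 to -0.04 before any adjustment for the number of genes.

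Smo (ENSMUSG00000001761.7, chromosome 6, 29735503 to 29761365, GRCm38) was at 125.7, 140.2, 140.5 and 156.2 TPM in mutants 1 to 4 and at 138.2, 146.7, 143.5 and 132.3 TPM in WT 1 to 4. Both the highest and the lowest of the 8 values came from mutants, with the WT embryos between them. The means were nearly equal, and the interval of the difference ran from -9.80% to 11.2% (limma, 95%, scale of TPM + 1; adjusted p = 0.992). Between 13209 and 16726 reads per library stood behind these values, so counting error was at most 0.870% of the level, while the coefficient of variation was 8.86% in mutants and 4.49% in WT. An amino acid substitution need not change the level of a transcript, so this value does not check the genotype labels.

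Gpr161 (chromosome 1, 165295789 to 165326745), whose protein opposes Smoothened in the cilium, was at 15.5, 18.5, 16.7 and 15.8 TPM in mutants, against 16.3, 19.3, 17.1 and 17.0 TPM in WT. The groups overlapped, and the interval of the difference ran from -15.9% to 8.55% (limma adjusted p = 0.711). Embryos held 7.58 to 9.86 times as much Smo as Gpr161 in mutants and 7.59 to 8.47 times as much in WT, with mutant 4, highest in Smo, at the upper end.

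Grk2 (chromosome 19, 4286001 to 4306222), the kinase of the Smoothened tail, was at 56.5, 61.9, 53.5 and 56.2 TPM in mutants, against 59.9, 62.9, 57.1 and 58.6 TPM in WT. Mutants 1, 3 and 4 lay below all WT embryos and mutant 2 lay within the WT range. The log2 difference was -0.06 ± 0.06 (SE, limma adjusted p = 0.604), with an interval from -12.6% to 4.69%. It was -0.03 without mutant 3 and -0.01 without mutants 3 and 4. Grk2 made up 34.8% to 36.9% of the summed TPM of Grk2, Grk3, Grk5 and Grk6 in mutants and 33.8% to 35.7% in WT, and most of the rest was Grk6.

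The arrestins, adaptor proteins that bind phosphorylated receptors, had the widest intervals of the 10 genes, and Arrb2 the largest difference. Arrb2 (chromosome 11, 70432635 to 70440828) was at 37.9, 43.1, 31.1 and 38.4 TPM in mutants, against 45.9, 47.1, 44.6 and 40.9 TPM in WT. Mutants 1, 3 and 4 lay below every WT embryo, mutant 2 lay above WT 4, and mutant 3 was the lowest of all. The log2 fold change was -0.25 ± 0.09 (SE), a mean 15.8% lower in mutants with an interval from -27.3% to -2.48% (limma unadjusted p = 0.0264, adjusted p = 0.328). The exact permutation test over the 70 assignments of 4 embryos against 4 gave p = 0.0571, where 0.0286 is the smallest it can give. Without mutant 3 the log2 fold change was -0.16, and without mutants 3 and 4 it was -0.14 (adjusted p = 0.458 and 0.495, within 0.116 to 0.582 over 22 alternatives). Mutant 3 was also low in the small nucleolar RNA hosts, with a sum of 323 TPM. Mutant 4 was lower still in these hosts, at 306 TPM, but next highest in Arrb2 among mutants after mutant 2. Mutants 1 and 2 had the highest yolk sac marker sums. When the yolk sac score was added to the model, a choice made after seeing the data, the log2 fold change of Arrb2 was -0.34 (limma unadjusted p = 0.044, adjusted p = 0.309). A microRNA annotated in the locus, Mir7115, overlaps 64 of the exon bases of Arrb2. Each library held 1764 to 2486 reads of Arrb2, so counting error was at most 2.38% of the level.

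Arrb1 (chromosome 7, 99535466 to 99606771) was at 28.5, 36.4, 28.6 and 32.9 TPM in mutants, against 26.2, 32.9, 32.8 and 32.3 TPM in WT. The groups overlapped widely, WT 1 was the lowest of the 8, and the interval of the difference ran from -13.2% to 19.2% (limma adjusted p = 0.924). The sign of its log2 fold change of 0.02 turned to -0.05 without WT 1. As a share of both arrestins, Arrb2 was 57.1%, 54.2%, 52.0% and 53.8% in mutants 1 to 4 and 63.7%, 58.9%, 57.7% and 55.9% in WT 1 to 4. Mutants 2, 3 and 4 lay below all WT embryos in this share and mutant 1 lay inside the WT range. The share was computed after the values were seen and was not tested.

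**Figure D3:**
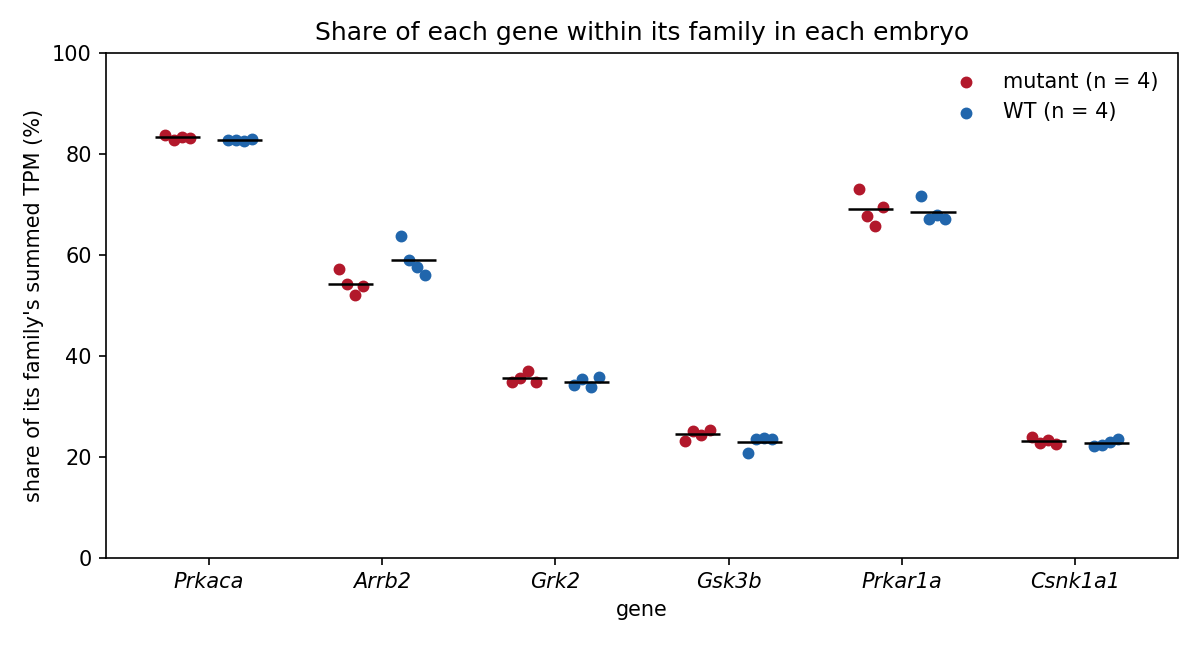
Share of each gene in the summed TPM of its family (%), per embryo, with mutants in red left of WT in blue and a bar at each group mean (n = 4 each): Prkaca of Prkaca and Prkacb, Arrb2 of Arrb1 and Arrb2, Grk2 of Grk2, Grk3, Grk5 and Grk6, Gsk3b of Gsk3a and Gsk3b, Prkar1a of the 4 regulatory subunit genes, and Csnk1a1 of 6 casein kinase 1 genes. Arrb2 spans 52.0% to 63.7%, the widest range, and Prkaca 82.6% to 83.8%, the narrowest.

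None of the PKA subunits passed the test. Prkaca (chromosome 8, 83972993 to 83996443), the main catalytic subunit, was at 178.1, 172.0, 167.9 and 169.0 TPM in mutants, against 156.1, 170.9, 157.0 and 166.6 TPM in WT. All mutants lay above WT 1, 3 and 4, and WT 2 lay within the mutant range. The log2 difference was 0.08 ± 0.05 (SE, limma adjusted p = 0.447), with an interval from -1.66% to 13.4%. With TPM rescaled by median ratios it was 0.12 (unadjusted p = 0.0384, adjusted p = 0.297, and 0.297 to 0.664 over 22 alternatives).

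Prkacb (chromosome 3, 146729574 to 146812990), the second catalytic subunit, was at 34.4, 35.7, 33.4 and 34.1 TPM in mutants, against 32.7, 35.5, 33.1 and 34.3 TPM in WT. Its groups overlapped, and the interval ran from -6.66% to 10.1% (limma adjusted p = 0.878). Prkaca made up 82.8% to 83.8% of the catalytic transcripts in mutants and 82.6% to 82.9% in WT. This share rests on merged exon lengths. By the longest coding transcript, the means over the 8 embryos were closer, at 182.8 for Prkaca and 68.9 for Prkacb, not rescaled to TPM. The longest run of bases that annotated transcripts of Prkaca and Prkacb share has 34 bases, and that of the arrestins has 18. The shared runs are printed in lower case, as they bear on how reads are divided between the paralogs.
Prkaca and Prkacb: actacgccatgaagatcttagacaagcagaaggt
Arrb1 and Arrb2: cctaatgcaccccaagcc

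Prkar1a (chromosome 11, 109649405 to 109669656), which holds the catalytic subunits inactive until cyclic AMP binds, was at 205.6, 199.9, 195.6 and 196.9 TPM in mutants, against 193.8, 211.8, 192.8 and 207.9 TPM in WT. All mutants lay inside the WT range, and the interval of the difference ran from -7.82% to 6.44% (limma adjusted p = 0.904). It made up 65.8% to 73.1% of the transcripts of the 4 regulatory subunit genes in mutants and 67.0% to 71.8% in WT. The summed TPM of these regulatory genes over that of both catalytic genes was 1.32, 1.42, 1.48 and 1.40 in mutants 1 to 4 and 1.43, 1.53, 1.49 and 1.54 in WT 1 to 4. Mutants 1, 2 and 4 lay below all WT embryos in this ratio and mutant 3 lay between WT 1 and WT 3. The ratio was computed after the values were seen and was not tested.

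The GLI kinases showed little difference between genotypes. Csnk1a1 (chromosome 18, 61555274 to 61590061) was at 124.8, 126.9, 115.2 and 122.8 TPM in mutants, against 116.6, 125.3, 123.3 and 125.3 TPM in WT, with an interval from -7.32% to 7.48% (limma adjusted p = 0.982). The lowest value came from mutant 3 and the highest from mutant 2. Gsk3b (chromosome 16, 38089001 to 38246084) was at 40.8, 48.3, 41.1 and 45.2 TPM in mutants, against 37.7, 46.3, 42.6 and 43.7 TPM in WT, with an interval from -8.94% to 16.6% (limma adjusted p = 0.809). Its groups overlapped, with WT 1 the lowest and mutant 2 the highest.

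The 10 genes differed in how far embryos of 1 genotype lay apart. The residual standard deviation of log2(TPM + 1) was 0.046 for Prkacb, 0.052 for Prkaca, 0.054 for Prkar1a and 0.055 for Csnk1a1. These 4 values were at percentiles 2.57, 4.46, 4.92 and 5.36 of the 13596 genes. Smo was at percentile 29.7 with 0.10, and Arrb2 and Arrb1 at 53.8 and 58.5 with 0.15 and 0.16. Embryos also moved in part together: WT 2 was the highest WT embryo for 9 of the 10 genes and WT 1 the lowest for 6, while mutant 2 was the highest mutant for 7 and mutant 3 the lowest for 6. Values of the 10 genes within an embryo are therefore not independent of each other.

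The genes whose values over the 8 embryos were most like those of Smo were Pcid2, Mcm3 and Hnrnpm, with Pearson's r of 0.981, 0.973 and 0.972 on the log2(TPM + 1) scale. Mcm3, a subunit of the replicative helicase, was at 267, 321, 313 and 363 TPM in mutants 1 to 4 and 308, 319, 314 and 287 TPM in WT 1 to 4. Like Smo, it was lowest in mutant 1 and highest in mutant 4. They are the 3 highest of 13595 such values in only 8 embryos, given as a description. The other 9 members had r between -0.30 and 0.42 with Smo.

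Other genes that act beside Smoothened were read from the same fit. Of 50 genes on a list of receptor kinases, PKA subunits and inhibitors, casein kinases, G proteins, adenylyl cyclases, phosphodiesterases, the Evc complex, ubiquitin ligases and ciliary transport, 44 were tested. None passed the test, and limma gave 2 of the 44 at an unadjusted p under 0.05, against 13.5% of all genes. Both were higher in mutants, against 5.55% of all genes, and none was lower, against 8.0%. Of the 44, 20 had a higher and 24 a lower mean in mutants, with a median log2 fold change of -0.04. Over all genes tested, 5124 had a higher and 8472 a lower mean. The 6 genes that did not pass the filter were Grk1, Grk4, Pkib, Adcy8, Adcy9 and Pde4c.

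Adcy5, an adenylyl cyclase known as a main form in heart muscle, was at 4.26, 3.12, 2.82 and 2.91 TPM in mutants, against 1.90, 2.52, 1.89 and 2.80 TPM in WT. The groups did not overlap, as held for 3.63% of all genes in this direction, with mutant 3 only just above WT 4. The log2 difference was 0.38 ± 0.14 (SE, limma adjusted p = 0.328), and it was 0.28 without mutant 1. The 5 heart markers, all of them higher in mean in mutants, summed to 1067 to 2123 TPM in mutants, against 648 to 974 TPM in WT. None was at 0 in any embryo. Mutant 1 had the highest sum, as for Adcy5, but the other mutants did not follow the same order. Mutant 2, next highest in Adcy5, had the lowest heart sum of the mutants, and mutant 3, the lowest mutant in Adcy5, had 1380 TPM. The part of the heart markers in the Adcy5 value was not tested.

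Gnai3, an inhibitory G protein subunit through which Smoothened can signal, was at 238.3, 244.4, 254.3 and 280.8 TPM in mutants, against 218.4, 235.5, 239.3 and 219.7 TPM in WT. Mutants 2, 3 and 4 lay above all WT embryos and mutant 1 lay between WT 2 and WT 3. The difference on the log2 scale was 0.15 ± 0.06 (SE, limma adjusted p = 0.331) and 0.08 without mutants 3 and 4. Gnas, the stimulatory subunit, differed by 0.01 on the log2 scale.

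In the remaining groups of the list, the gene with the smallest p was, on the log2 scale of mutant minus WT, Grk6 at -0.11 among receptor kinases, Prkar2a at -0.22 among PKA regulators and Csnk1e at -0.14 among casein kinases. It was Pde4a at 0.10 among the phosphodiesterases, Mgrn1, a ubiquitin ligase that lowers surface Smoothened, at 0.11, and Spop at -0.10 among the ligases of GLI proteins. Leaving out 1 embryo at a time moved several of these by over 1.5 times: Grk6 to -0.06 without mutant 3, Prkar2a to -0.12 without mutant 1 and -0.34 without WT 1, and Pde4a and Mgrn1 to 0.05 and 0.06 without mutant 1. Pde4a was at 0.17 without WT 1, and Spop at -0.16 without mutant 2. Without mutants 3 and 4, Grk6 was at -0.05, Csnk1e at -0.09, Prkar2a at -0.34 and Spop at -0.06, and Pde4a and Mgrn1 were both at 0.17. The 4 genes of the Evc complex, which binds Smoothened at the base of the cilium, all had lower means in mutants. Their log2 differences ran from -0.42 for Efcab7 to -0.08 for Evc2. A lower mean was also held by 8472 of the 13596 genes tested. Efcab7 varied widely, from 2.12 to 9.07 TPM in mutants and from 4.81 to 10.1 TPM in WT. The limma interval of its log2 difference ran from -1.26 to 0.43. The smallest adjusted p of limma in that complex was 0.469, for Iqce, at 6.19, 7.10, 3.97 and 5.16 TPM in mutants, against 6.77, 6.99, 6.69 and 6.11 TPM in WT. Mutants 3 and 4 were the low ones for Iqce, and the log2 difference, -0.23 over all embryos, was -0.10 when mutant 3 was left out and -0.00022 when both were. Kif3a, a motor subunit of ciliary transport, was at -0.16 and the kinase Ulk3 at -0.14. Without mutants 3 and 4 the signs of Kif3a and Ulk3 turned, to 0.04 and 0.24.

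**Figure D4:**
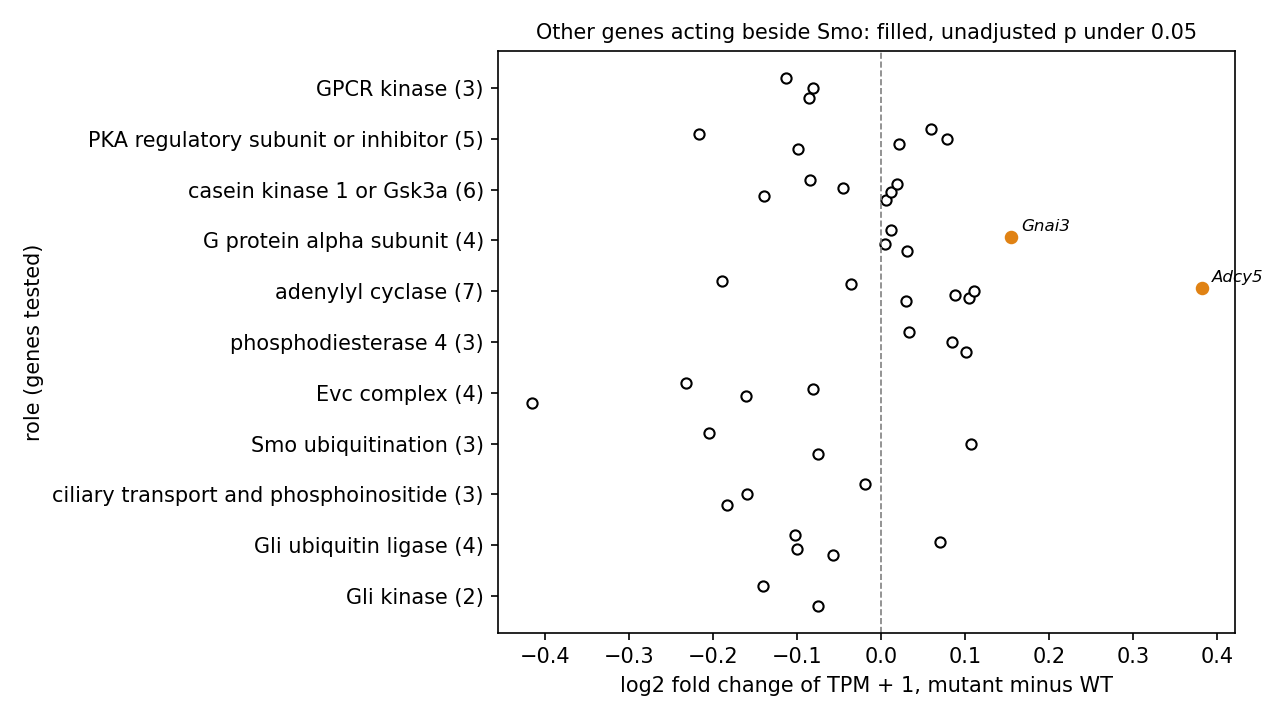
Log2 fold change of TPM + 1, mutant minus WT, of the 44 tested genes of the list, by role (number tested in brackets). Filled points, Adcy5 at 0.38 and Gnai3 at 0.15, have an unadjusted limma p under 0.05, and no gene passes after adjustment.

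Gli1, a direct target that reads out signalling downstream of Smoothened, was set beside Smo in each embryo. Gli1 was at 23.2, 28.9, 10.7 and 19.5 TPM in mutants 1 to 4 and 29.5, 30.1, 28.6 and 25.8 TPM in WT 1 to 4. Mutant 3, with the least Gli1, had 140.5 TPM of Smo, close to the mean of all embryos, and mutant 4, with the most Smo, was next lowest in Gli1. Ptch1, the receptor gene that is also a target, was at 29.7, 36.3, 25.9 and 42.1 TPM in mutants, against 31.0, 37.3, 42.1 and 34.4 TPM in WT. Ptch1 was thus lowest in mutant 3 as well, but mutant 4 had the highest value of the 8. Arrb2, Grk2 and Csnk1a1 were also lowest in mutant 3.

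**Figure D5:**
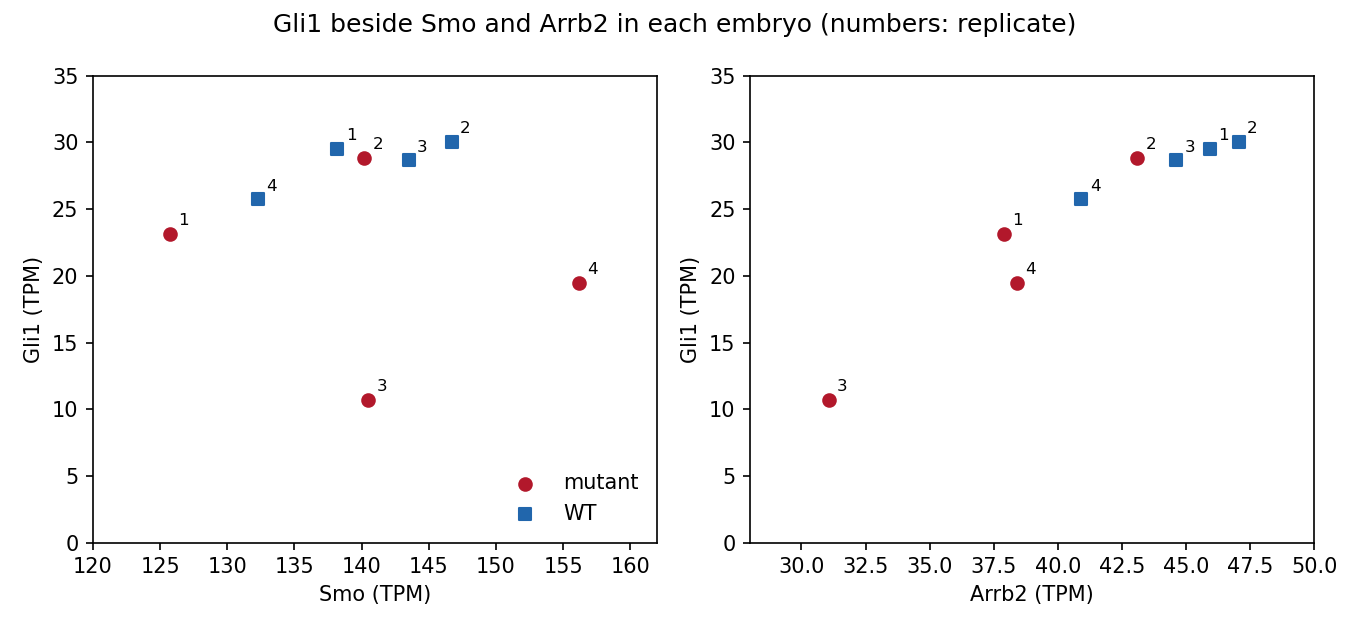
Gli1 (TPM, from 0) against Smo (left, TPM) and against Arrb2 (right, TPM) in each embryo, with mutants as red circles, WT as blue squares and replicate numbers beside the points. Mutant 3 lies at 10.7 TPM of Gli1, 140.5 TPM of Smo and 31.1 TPM of Arrb2, and the horizontal axes do not start at 0.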

How the data were processed

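The authors deposited TPM per gene symbol for 8 embryos, and all 8 columns were matched to samples by name. Genome build GRCm38 (mm10) is per the submitters' processing notes. Strandedness, annotation release, aligner and counter: not given in the sources used here. Per the labels' protocols, libraries were made with a TruSeq kit and sequenced on a NovaSeq instrument. Multiplying TPM by merged exon lengths of GENCODE M21 gave whole reads within 0.02 reads in every library for 22470 of 23993 genes with a value (93.7%), all 10 members among them. Intervals from reads cover counting error only.

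Genes with at least 1 TPM in at least 4 embryos (13596) entered a linear model of log2(TPM + 1) on genotype alone, fitted by limma (version 3.58.1, under R version 4.3.3) with trended moderation of the variances. Tests were two-sided, p-values were adjusted by Benjamini-Hochberg over all these genes, and the threshold was 0.05. A fold change here is one of TPM + 1. The procedure was tested on simulated data. The members, lists and tests were chosen with earlier results of these data known. The genes named are the 10 members, the gene with the smallest p in each role group of the pathway list (others where the text says what they are), and the 3 genes most correlated with Smo. Alternatives covered pseudocounts, filters, scaling, variance model, permutation, a replicate block, Xist as a covariate and leaving out each embryo. Chosen after seeing the data were leaving out mutants 3 and 4, limma voom on recovered reads, the yolk sac score as a covariate, the other gene length, and the shares and ratios within families. The labels do not say whether replicate numbers pair embryos, so the main model held no pairing. Same-numbered embryos correlated at -0.062, 0.04, -0.19 and -0.25 over the genes tested after centring. Embryos of different numbers were not compared in this way, so these values cannot show whether a pairing exists.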

Additional observations from a re-analysis of the deposited data

Results flagged for a closer look

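Among 18 quantities in 2 groups each, 36 groups of 4 embryos in all, 2 had an embryo that stood far from the other 3, where chance gives about 1 group in 20. Both were WT 1. Arrb1 was at 26.19 TPM in WT 1 and at 32.3 to 32.9 TPM in the other WT embryos. Gsk3b made up 20.65% of the summed TPM of Gsk3a and Gsk3b in WT 1 and 23.5% to 23.7% in the other WT embryos.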

How the results depend on the processing

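In 22 alternatives none of the 10 genes passed the threshold in any, and 197 of 220 log2 fold changes kept the sign of the reported one. Those of Gpr161, Grk2, Arrb2, Prkaca and Prkacb kept it in all 22. The filters, the fit without a trend, the permutation and the replicate block leave a log2 fold change as it is. Signs kept under these settings were therefore fixed in advance, and the permutation test could also call no gene after adjustment. Arrb2 ranged from -0.337 (yolk sac score as a covariate) to -0.138 (without mutants 3 and 4), with adjusted p from 0.116 to 0.582. The other signs turned around values near 0. Leaving out 1 embryo at a time gave -0.0498 to 0.054 for Smo, -0.0518 to 0.0709 for Arrb1, -0.0347 to 0.0104 for Prkar1a, -0.0266 to 0.026 for Csnk1a1 and -0.0124 to 0.0832 for Gsk3b. Without mutants 3 and 4, Smo was at -0.077, Gpr161 at -0.0369, Grk2 at -0.0104, Prkar1a at 0.00955, Csnk1a1 at 0.0376, Kif3a at 0.0425 and Ulk3 at 0.236. Arrb1 was at -0.00985 with array weights and -0.0369 with the yolk sac covariate. Median-ratio scaling gave 0.0307 for Prkar1a and 0.0415 for Csnk1a1, upper-quartile scaling 0.0131 and 0.024, and voom 0.00059 for Csnk1a1. The cause was not tested.

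The count of genes called was 0 to 1 without 1 embryo (Gm28230, without mutant 2) and 3 without mutants 3 and 4 (Gsn, Prap1 and Gpx3, named after their values were seen). Genes at an unadjusted p under 0.05 numbered 1842, and 1158 to 3094 without 1 embryo, 3511 with array weights and 1014 by permutation. Members at that level numbered 1, and 2 with median-ratio scaling, 0 by permutation and without mutants 3 and 4, and 0 to 1 without 1 embryo. Pathway genes at that level numbered 2, and 1 with the filter at 5 TPM, without a trend or by permutation, 6 with array weights and 0 to 10 without 1 embryo. With the replicate block 1900 genes were at that level, and the block changed no call. For the 10 members, counting error was at most 2.38% of the level.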

Other observations

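In the plot of Gli1 against Arrb2 the embryos lay close to a line. This pattern was noticed after the values were seen, so it is given as a description with no test. Over the 8 embryos on the log2(TPM + 1) scale, Arrb2 had a Pearson's r of 0.96 and a Spearman's rho of 0.95 with Gli1. Without mutant 3 and WT 2, the embryos farthest from the median of Arrb2, r was 0.89 over 6 embryos, and without mutants 3 and 4 it was 0.97 over 6. After each group's mean was subtracted, r was 0.94. A value at least as far from 0 was held by 0.552% of the genes tested besides Gli1, 75 in number with Arrb2 itself among them. After the group means were subtracted it was 1.03%.

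Grk2 had r of 0.83 and rho of 0.95 with Gli1, and r of 0.72 without mutants 3 and 4. As many as 11.6% of all genes, and 15.3% after the group means were subtracted, had an r at least as far from 0 as that of Grk2. The other 8 members had r from -0.22 to 0.60. Smo was at -0.08 over all 8 embryos, at -0.18 within mutants and at 0.84 within WT. It was at 0.08 without mutants 1 and 4, the embryos farthest from the median of Smo, and at 0.94 without mutants 3 and 4. Leaving out mutants 3 and 4 was chosen after seeing the data and takes away the 2 embryos lowest in Gli1. The share of all genes at such a value without them was not computed.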
